A study of Homo sapiens with 6 samples.

Results

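Myosin II is the motor that contracts stress fibres and the cell cortex, and the mRNAs that encode its chains, the kinase that switches it on and the phosphatase that switches it off were followed here in human breast cancer cells after knockdown of TAZ. The 10 genes were found by their symbols among the 46427 genes of the deposited gene table. They are MYLK (myosin light chain kinase), the light chains MYL6, MYL9, MYL12A and MYL12B, the heavy chains MYH9 and MYH10, and the phosphatase genes PPP1R12A, PPP1R12B and PPP1CB. MYLK was also read through its 20 transcripts among the 170322 transcripts listed. All 10 genes passed the filter on low counts.

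MDA-MB-231 is an established, metastatic human breast cancer line, and all 6 libraries came from this single line. Of these, 3 libraries were of cells given control-siRNA (genotype label WT) and 3 of cells given an siRNA against WWTR1, the gene encoding TAZ, by lipid transfection (genotype label TAZ knockdown). The labels describe the same culture medium for both groups, and the study's methods count 3 cell preparations in each group. The p-values measure the spread between preparations of this line. The question put by the design was which genes of cell motility change when TAZ, a transcriptional co-activator of the Hippo pathway, is depleted.

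A myosin II molecule holds a pair of heavy chains, each carrying an essential and a regulatory light chain. Phosphorylation of the regulatory light chain by MYLK, which needs calmodulin, or by other kinases lets the motor assemble into filaments and pull on actin. Myosin phosphatase, built of the catalytic subunit PPP1CB and a targeting subunit of the PPP1R12 family, removes the phosphate again. In migrating cells this cycle sets the contraction of stress fibres, and mRNA levels say nothing of the phosphorylation itself.

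Total counts per library were 48307548 to 71749634. WWTR1 lay between 190 and 192 CPM (counts divided by library size, with TMM factors of 0.978 to 1.02) with control-siRNA and between 15.1 and 17.3 CPM with TAZ-siRNA, 8.64% of the control mean (edgeR adjusted p = 2.5e-10), lower in every library labelled TAZ-siRNA. The labels call the cells epithelial. KRT8 and KRT18, both epithelial keratins, lay at 473 to 591 CPM, whereas the epithelial markers CDH1 (0.041 to 0.58 CPM) and EPCAM (0.77 to 1.59 CPM) were near 0. KRT19, a further keratin of the epithelial list, rose from 62.3 to 64.7 CPM to 77.6 to 86.8 CPM (log2 fold change 0.37, edgeR adjusted p = 0.0012). The other 4 members of that list had log2 fold changes of -0.75 to -0.011 and did not pass. The summed list was 1086 to 1180 CPM with control-siRNA and 1034 to 1162 CPM with TAZ-siRNA, and overlapped (exact permutation p = 0.5). Of the 3 mesenchymal markers, VIM was 3487 to 3734 CPM with control-siRNA and 3297 to 3561 CPM with TAZ-siRNA, and overlapped. FN1 was higher in every TAZ-siRNA library, at 1006 to 1075 CPM against 918 to 964 CPM with control-siRNA (log2 fold change 0.15). It did not pass in edgeR (adjusted p = 0.086) and passed with DESeq2 (adjusted p = 0.0077). CD44 was lower in every TAZ-siRNA library, at 499 to 522 CPM against 523 to 526 CPM (log2 fold change -0.034, edgeR adjusted p = 0.686). MYH11 and ACTG2, defining genes of smooth muscle, had at most 8 counts in any library. The summed smooth muscle list of 6 genes was 57.7 to 62.1 CPM with control-siRNA and 62.8 to 64.7 CPM with TAZ-siRNA, most of it SMTN (53.6 to 57.45 CPM with control-siRNA and 59.6 to 61.8 CPM with TAZ-siRNA, edgeR adjusted p = 0.076, and 0.0496 without TAZ-siRNA replicate 3). Within the list DES, the muscle intermediate filament desmin, fell from 3.54 to 4.24 CPM to 1.95 to 2.68 CPM (log2 fold change -0.76, edgeR adjusted p = 0.0063), and CNN1 was 0.247 to 0.435 CPM against 0.179 to 0.264 CPM, and LMOD1 0.0643 to 0.225 CPM against 0.101 to 0.37 CPM. The list's part in the results was not tested. The 7 genes of skeletal and cardiac muscle summed to at most 0.165 CPM.

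Replicates are numbered 1 to 3 throughout, as in the sample descriptions, and the sample titles call the same libraries rep3 to rep5 in each group. TAZ-siRNA replicate 3 stood apart from the other libraries of its group, with a chi-square of 30.3 and 41.0 per degree of freedom against them, where they gave 11.7 against each other. Control-siRNA replicate 3 gave 21.9 and 19.9 against its group, where the others gave 6.79. The myosin genes showed this split directly. In replicate 3 of both groups, all 4 light chain mRNAs were at their highest CPM of the group, and MYLK, MYH9, MYH10, PPP1R12A and PPP1R12B at their lowest. This order did not hold for every gene in the deposited TPM, which are scaled for length. There MYL9 was lowest in TAZ-siRNA replicate 3 (62.4 TPM, against 65.5 and 66.6 TPM). The light chain mRNAs are short, with a mean length weighted by counts of 690 to 2783 bases, and the 5 others are 5523 to 12470 bases long. The part of length in these deviations was not tested, and values without TAZ-siRNA replicate 3 or corrected for GC content and length are given where they change a call among the 10 genes or the other actomyosin genes.

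Of the 10 genes, MYLK fell and MYL9 rose, and the other 8 did not pass the test (edgeR's quasi-likelihood test, Benjamini-Hochberg adjusted p under 0.05 over 16966 genes). These 2 calls are 20.0% of the 10 genes, beside 22.1% of all genes tested. The groups did not overlap in CPM for 3 of the 10, lower for MYLK and higher for MYL9 and PPP1CB, beside 39.6% of all genes tested. Neither share lies above its background. The median log2 fold change was 0.06 over the 10 genes and -0.01 over all genes tested. A change of less than 1.2-fold was fitted for 9 of the 10 (all but MYLK), beside 68.2% of all genes tested, while the 95% intervals of MYL9, MYH10 and PPP1R12B reach 1.28-, 1.298- and 1.43-fold.

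**Figure D1:**
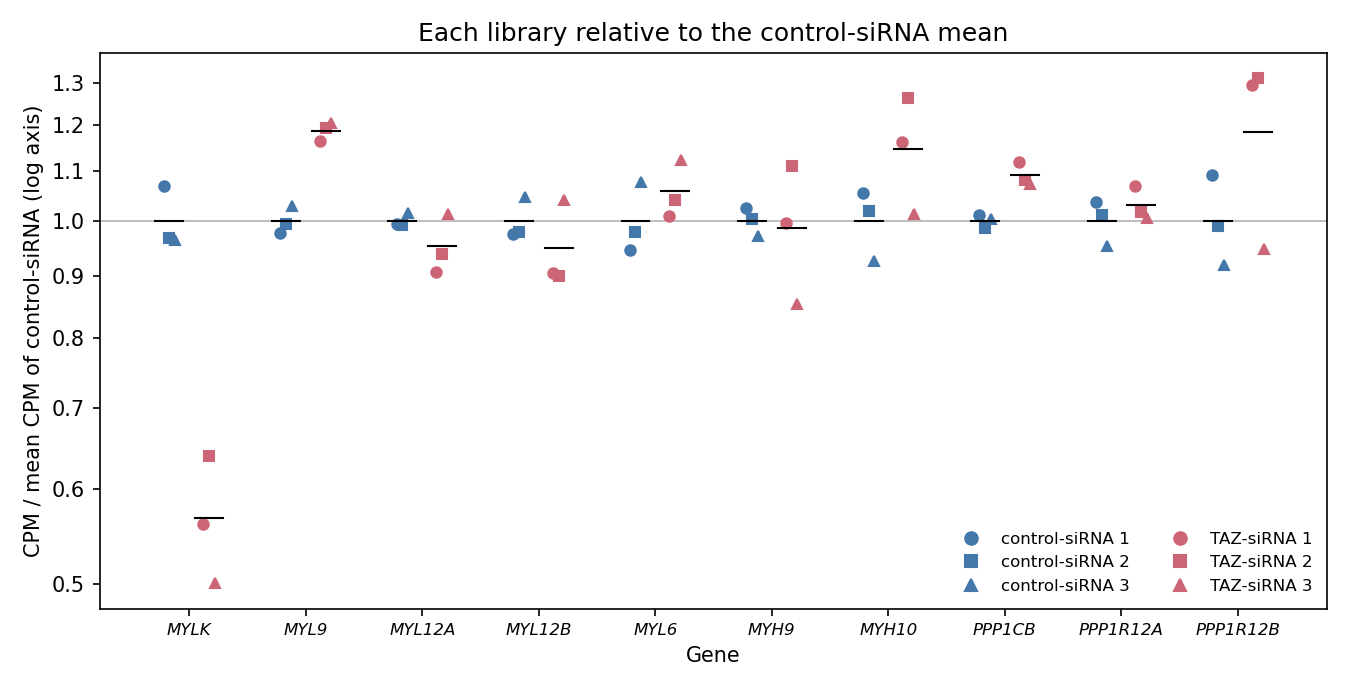
CPM of each library divided by the mean of the 3 control-siRNA libraries, on a log axis, for the 10 genes. Points are libraries (blue, control-siRNA; red, TAZ-siRNA; the shape gives the replicate) and black bars are group means. MYLK lies at a mean of 56.7% of control in TAZ-siRNA, MYL9 at 119%, and the triangles of replicate 3 lie highest for the light chains and lowest for the heavy chains in both groups.

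The levels per transcript length, in TPM (scaled for length and to a common total per library), spanned from MYL6 at 1233 ± 53.6 TPM to PPP1R12B at 2.96 ± 0.387 TPM with control-siRNA (SD, n = 3). MYL6, the essential light chain of nonmuscle cells, was above every other gene of the group in all 6 libraries. MYL12B (539 to 578 TPM over the 6 libraries), MYL12A (498 to 516 TPM) and MYH9 (393 to 551 TPM) followed, and the levels of MYH9 overlapped with those of both light chains. PPP1CB (114 to 140 TPM) stood between these and MYL9 (52.1 to 66.6 TPM), and the lowest MYL9 value was above the highest of PPP1R12A (40.5 to 49.5 TPM). MYH10 (12.2 to 18.4 TPM) was above MYLK (3.96 to 11.6 TPM) in every library, and PPP1R12B (2.32 to 4.02 TPM) was lowest, its range just touching that of MYLK. The kinase mRNA was thus among the scarcest of the group, and MYL12A and MYL12B, of its substrates, among the most abundant.

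**Figure D2:**
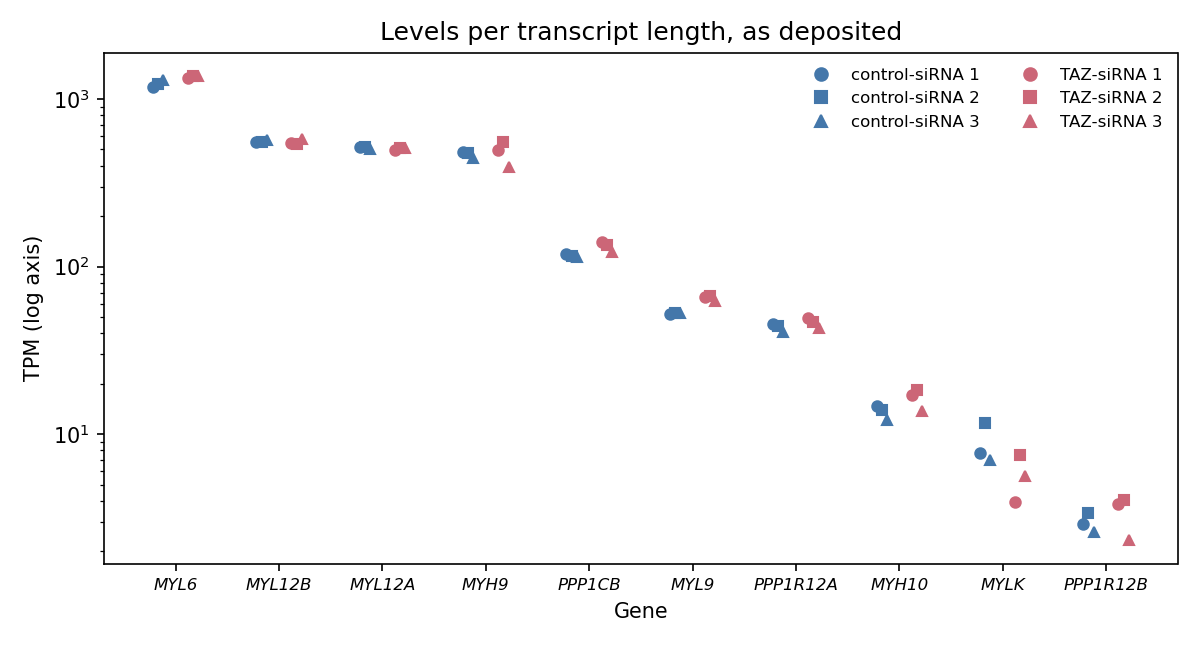
Deposited TPM of each gene and library on a log axis, ordered by the control-siRNA mean. Points are libraries, coloured by siRNA and shaped by replicate. MYL6 lies above 1000 TPM and MYLK and PPP1R12B lie near or below 10 TPM in all libraries.

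MYLK, the calcium- and calmodulin-dependent kinase of the regulatory light chain, lies on the minus strand of chromosome 3 (GRCh38, 123610049 to 123884332). It was measured at 30.2, 27.4 and 27.3 CPM in the control-siRNA libraries. With TAZ-siRNA it was 15.9, 18.1 and 14.2 CPM. All TAZ-siRNA libraries lay below all control-siRNA libraries, and the gap between the groups was larger than the range within either. The log2 fold change was -0.82 with a standard error of 0.088 (95% interval -1.02 to -0.63, edgeR adjusted p = 2.4e-04). In linear terms this is 0.566-fold (0.494 to 0.648). Leaving out any 1 of the 6 libraries kept the call, with log2 fold changes from -0.91 to -0.74. It lost its call when limma was run on the deposited FPKM (fragments scaled for length and depth), with -0.49 on the log2(FPKM + 1) scale and a limma adjusted p of 0.105. In bulk RNA, fewer cells with the mRNA and less of it per cell cannot be told apart.

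The gene carries several starts. The table lists 13 long transcripts, of which 5 start at the outermost position (123884332) and 8 at inner positions, 3 short transcripts, and 4 telokin transcripts that start near the 3′ end of the gene and encode only the C-terminal myosin-binding part of the kinase. The 250 bases before the telokin start and before the outermost start are shown as examples. Telokin transcripts held only 1.21 to 7.70% of the MYLK counts of a library, and no inner or short start is shown. The capitals mark a CArG box, the motif of serum response factor, and both stretches are given 5′ to 3′ on the minus strand.
MYLK telokin start, chr3:123620549-123620798, minus strand: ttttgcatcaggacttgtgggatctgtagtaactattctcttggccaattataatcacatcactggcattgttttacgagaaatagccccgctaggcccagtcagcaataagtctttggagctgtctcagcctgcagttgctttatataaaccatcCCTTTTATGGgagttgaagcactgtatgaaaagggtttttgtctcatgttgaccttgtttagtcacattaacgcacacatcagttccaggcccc
MYLK outermost start, chr3:123884333-123884582, minus strand: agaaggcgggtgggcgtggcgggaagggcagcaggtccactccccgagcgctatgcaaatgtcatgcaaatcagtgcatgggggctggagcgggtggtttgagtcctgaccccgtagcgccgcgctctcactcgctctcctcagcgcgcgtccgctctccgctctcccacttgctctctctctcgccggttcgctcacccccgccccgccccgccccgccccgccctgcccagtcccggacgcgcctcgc

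The telokin stretch (RefSeq, GRCh38.p14) has a GC content of 43.2% and its CArG box begins 94 bases before the start. The outermost stretch, read from hg38, has a GC content of 70.8% and holds none of the motifs searched on both strands. These were the CArG box by name, the TEAD motif GGAATG and the AP-1 motif TGANTCA, none of which contains another. RefSeq promoter windows were matched for 9 of the 10 genes (19 windows), all but MYL9. The TEAD motif lay in 4 of these 19 windows, in MYH9, MYH10 and PPP1R12A, beside 11.9% of all 35116 windows of the same length. The AP-1 motif lay in 0 of 19, beside 6.57% of all windows. The CArG box lay in 1 of 19, the telokin window above, beside 1.16% of all windows. None of MYH9, MYH10 and PPP1R12A, whose windows hold the TEAD motif, passed the test of expression on all libraries. MYH10 passed without TAZ-siRNA replicate 3 (edgeR adjusted p = 0.0022). A match of letters is a description only.

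The estimated counts of MYLK were divided between starts in a way that cut across the siRNA groups. The transcripts overlap, so each count is an estimated assignment of shared reads. Whether the division follows the starts used in the cells or the estimation was not tested. Transcripts from the outermost start held 87.6, 3.64 and 83.1% of the MYLK counts in the control-siRNA libraries. In the TAZ-siRNA libraries they held 93.2, 2.69 and 3.28%. Control-siRNA replicates 1 and 3 and TAZ-siRNA replicate 1 thus had nearly all counts on the outermost start, and the other 3 libraries had nearly none there. In those 3 libraries, the inner starts held 52.1% in control-siRNA replicate 2 and 59.9 and 52.1% in TAZ-siRNA replicates 2 and 3, and short transcripts held 39.2, 32.7 and 36.9%. The transcript NM_053026, which led in 3 libraries with 1632, 579 and 832 counts, was listed at 0 in the other 3. In those other 3 libraries the gene as a whole had 1705, 892 and 792 counts.

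The level per length moved with this division. The mean length of MYLK transcripts weighted by counts was 9257, 5376 and 9066 bases with control-siRNA and 9605, 5612 and 5490 bases with TAZ-siRNA. The deposited TPM of the gene was 7.69, 11.6 and 7.003 with control-siRNA and 3.96, 7.51 and 5.65 with TAZ-siRNA, and so the groups overlapped (exact 2-sided permutation p = 0.2, where 0.1 is the smallest that 3 against 3 libraries can give). Among the libraries with outermost-start counts, the control-siRNA values were 7.69 and 7.003 TPM and the TAZ-siRNA value 3.96. Among the others, the control-siRNA value was 11.6 TPM and the TAZ-siRNA values 7.51 and 5.65. This split was made after the transcripts had been seen, holds a single library on one side of each comparison and supports no test, so the TPM alone do not show a difference.

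**Figure D3:**
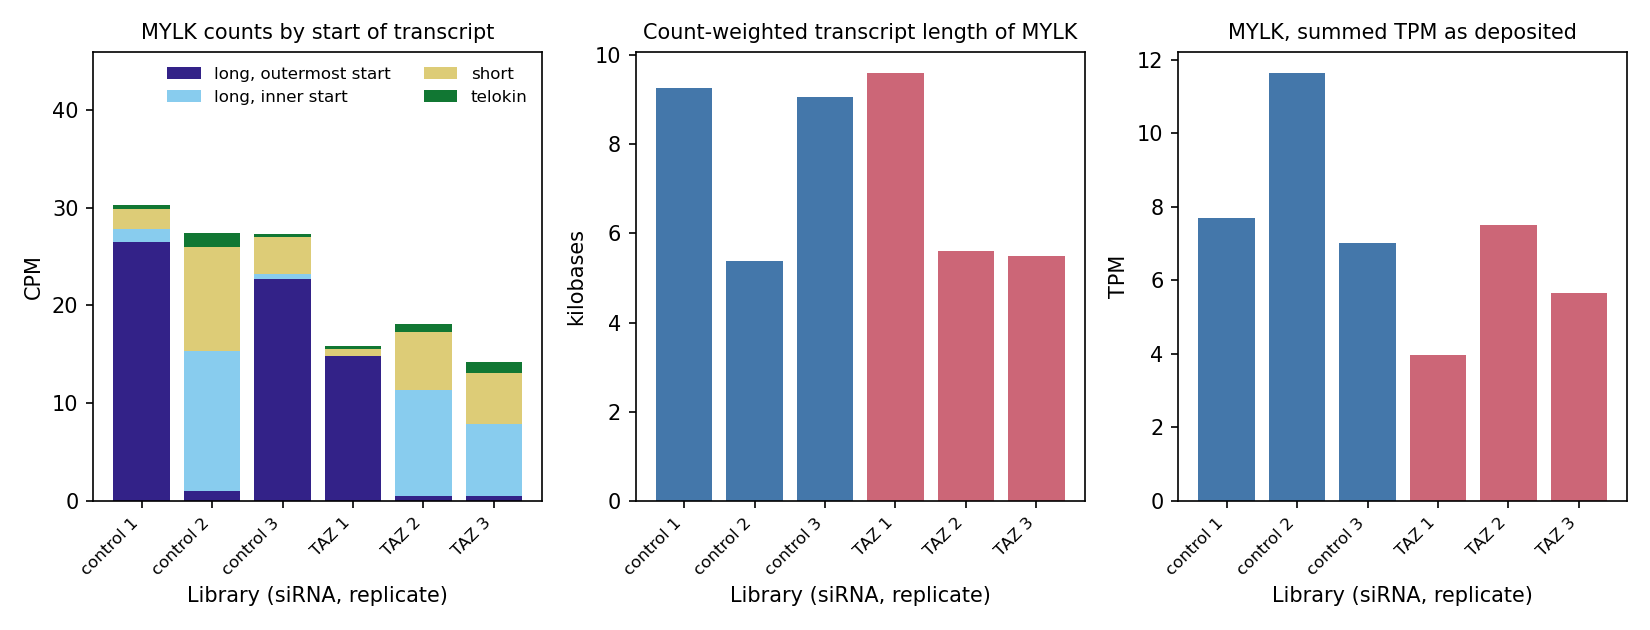
MYLK in each library: CPM stacked by the start of the transcript (left), the mean transcript length weighted by counts in kilobases (middle) and the deposited TPM of the gene (right; blue, control-siRNA; red, TAZ-siRNA). Summed CPM is lower in all TAZ-siRNA libraries, whereas most estimated counts are assigned to the outermost start in control-siRNA 1 and 3 and TAZ-siRNA 1 only.

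All long transcripts together reached 27.8, 15.3 and 23.2 CPM with control-siRNA. With TAZ-siRNA they reached 14.8, 11.3 and 7.86 CPM. The groups did not overlap (exact permutation p = 0.1). The short transcripts lay at 2.01, 10.7 and 3.73 CPM against 0.699, 5.92 and 5.23 CPM and overlapped. The telokin transcripts were at 0.405, 1.37 and 0.329 CPM with control-siRNA and 0.343, 0.852 and 1.09 CPM with TAZ-siRNA, low in both groups and overlapping. As a share of MYLK TPM, long transcripts held 67.5 ± 17.8% with control-siRNA and 65.4 ± 19.7% with TAZ-siRNA (SD, n = 3, exact permutation p = 1.0). That difference ran from -13.2 percentage points without TAZ-siRNA replicate 1 to 5.83 without control-siRNA replicate 1. The telokin share was 3.24 ± 1.86% and 6.01 ± 2.27% (SD, n = 3, exact permutation p = 0.3), a difference that ran from 1.51 points without TAZ-siRNA replicate 3 to 3.85 points without control-siRNA replicate 2.

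No MYLK transcript passed the test of transcripts, in which 0.017% of 64638 transcripts were called by edgeR. Of the 20 transcripts, 16 had a count in some library, 13 of these were at 0 in at least 1 library, and 11 were tested. Of these 11, 0 had an unadjusted edgeR p under 0.05, the lowest adjusted p was 0.874, and DESeq2, which gave no p for NM_053025 and called 1366 of 78437 transcripts in all, called 0 of the other 10. The standard errors ran from 0.55 to 2.97 on the log2 scale, so changes of several-fold were not detectable for most single transcripts. Among the short transcripts, XM_017006470 had 62, 108 and 58 counts with control-siRNA and 0, 0 and 19 with TAZ-siRNA, and XM_017006471 had 37, 179 and 52 against 0, 0 and 20. XM_017006469 had 35, 382 and 71 counts with control-siRNA and 51, 292 and 253 with TAZ-siRNA, and overlapped.

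The regulatory light chains are the substrates of MYLK, and MYL9, MYL12A and MYL12B encode 3 near-identical forms of them. MYL9, the form typical of smooth muscle and also made in other contractile cells, is on chromosome 20 (36541519 to 36551447). It was 65.8, 66.9 and 69.2 CPM with control-siRNA. It was 78.3, 80.4 and 81.1 CPM with TAZ-siRNA, and every TAZ-siRNA library was above every control-siRNA library. The log2 fold change was 0.25 with a standard error of 0.047 (95% interval 0.15 to 0.35, edgeR adjusted p = 0.0044), a rise of 1.19-fold. MYL9 passed the test in all alternatives that were run, with 0.23 to 0.27 when a library was left out.

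MYL12A and MYL12B lie beside each other on chromosome 18 (3247482 to 3256237 and 3262133 to 3278461) and encode the forms found in most nonmuscle cells. MYL12A was 225, 225 and 229 CPM with control-siRNA and 205, 212 and 229 CPM with TAZ-siRNA. MYL12B was 293, 293 and 313 CPM against 271, 270 and 312 CPM. In both genes TAZ-siRNA replicates 1 and 2 lay below all control-siRNA libraries and replicate 3 lay among them. The log2 fold changes were -0.07 (edgeR adjusted p = 0.393) and -0.08 (edgeR adjusted p = 0.453). Without TAZ-siRNA replicate 3, MYL12B was lower at -0.14 (edgeR adjusted p = 0.037). The length and GC correction turned both directions, to 0.040 for MYL12A and 0.013 for MYL12B, neither of them called.

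Summed over the 3 genes, regulatory light chain mRNA was 1126 ± 2.5 TPM with control-siRNA and 1126 ± 23.0 TPM with TAZ-siRNA (SD, n = 3, exact permutation p = 1.0). The share of MYL9 restates its rise above as a part of that sum and adds no separate evidence. MYL9 held 4.62, 4.70 and 4.65% of it with control-siRNA and 5.90, 5.97 and 5.41% with TAZ-siRNA. The groups did not overlap, and the exact permutation p of 0.1 is the smallest the design allows. The log2 ratio of MYLK to the summed regulatory light chains, both in TPM, was -7.04 ± 0.393 with control-siRNA and -7.67 ± 0.459 with TAZ-siRNA and overlapped (SD, n = 3, exact permutation p = 0.2). This difference ran from -0.86 without TAZ-siRNA replicate 2 to -0.40 without TAZ-siRNA replicate 1, and was -0.41 without control-siRNA replicate 2. Taken on counts, the ratio was lower in all TAZ-siRNA libraries, by 0.79 on the log2 scale (exact permutation p = 0.1).

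MYL6, the essential light chain, which stabilises the lever arm of the heavy chain, is on chromosome 12 (56158359 to 56161579). It was 371, 383 and 422 CPM with control-siRNA and 396, 408 and 440 CPM with TAZ-siRNA, and the groups overlapped (log2 fold change 0.08, edgeR adjusted p = 0.42). In TPM, TAZ-siRNA libraries were all higher, at 1339 to 1369 against 1186 to 1291 (exact permutation p = 0.1). Corrected for length and GC, the log2 fold change was 0.20 (edgeR adjusted p = 0.0066).

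MYL6 has 2 transcripts in the table, NM_021019 of 708 bases and NM_079423 of 663 bases. Their difference of 45 bases equals one exon of the GENCODE annotation, at 56160626 to 56160670 on the plus strand, which ends the protein of the nonmuscle form. Its bases up to the stop codon (in capitals) are shown because the transcript counts divide over its use.
MYL6 exon, chr12:56160626-56160654, plus strand: cgtttgtgaggcatatcctgtcggggTGA
The shorter transcript, which lacks this exon and encodes the form known from smooth muscle, held 41.3, 39.4 and 39.1% of MYL6 TPM with control-siRNA. It held 44.3, 42.4 and 42.6% with TAZ-siRNA. The groups did not overlap (exact permutation p = 0.1). NM_079423 reached 481 to 505 TPM with control-siRNA and 580 to 593 TPM with TAZ-siRNA, a log2 fold change of 0.21 (edgeR adjusted p = 0.462 over all transcripts). NM_021019 was 696 to 787 TPM and 746 to 787 TPM, and overlapped. This share was computed after the values of the transcripts had been seen.

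The heavy chains carry the motor domain and the coiled-coil tail. MYH9, the heavy chain of nonmuscle myosin IIA, is on chromosome 22 (36281280 to 36387967) and has a single transcript in the table. It was 1643, 1611 and 1558 CPM with control-siRNA and 1598, 1780 and 1367 CPM with TAZ-siRNA. The TAZ-siRNA libraries spread on both sides of the controls, and the log2 fold change was -0.02 (95% interval -0.21 to 0.17, edgeR adjusted p = 0.897). Without TAZ-siRNA replicate 3 it was 0.08 (edgeR adjusted p = 0.316), so its direction rested on that library. With the length and GC correction on all libraries it was -0.14 (edgeR adjusted p = 0.093).

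MYH10, the heavy chain of nonmuscle myosin IIB, is on chromosome 17 (8474205 to 8631369). It was 51.6, 49.9 and 45.3 CPM with control-siRNA and 56.9, 61.8 and 49.6 CPM with TAZ-siRNA. Of the TAZ-siRNA libraries, 2 were above all controls and replicate 3 lay among them. The log2 fold change was 0.20 (95% interval 0.02 to 0.38, edgeR adjusted p = 0.111), and without TAZ-siRNA replicate 3 it was 0.28 (edgeR adjusted p = 0.0022). Leaving out any other library gave 0.13, without TAZ-siRNA replicate 2, to 0.24. Corrected for length and GC, it was 0.075 (edgeR adjusted p = 0.367). As a share of heavy chain TPM, MYH10 was 2.95, 2.86 and 2.69% with control-siRNA and 3.31, 3.23 and 3.40% with TAZ-siRNA. This share did not overlap between the groups (exact permutation p = 0.1), and the part of length in it was not tested. The MYH10 transcript NM_001256095 was at 0.77 to 2.29 TPM with control-siRNA and 2.80 to 5.63 TPM with TAZ-siRNA (edgeR adjusted p = 0.671).

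The stoichiometry of light to heavy chain mRNA did not differ beyond the spread. There were 2.34 ± 0.126 regulatory light chain mRNAs per heavy chain mRNA with control-siRNA and 2.31 ± 0.459 with TAZ-siRNA, both from TPM (SD, n = 3, exact permutation p = 1.0). For MYL6 the ratio was 2.57 ± 0.246 and 2.79 ± 0.51 (SD, n = 3, exact permutation p = 0.6).

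**Figure D4:**
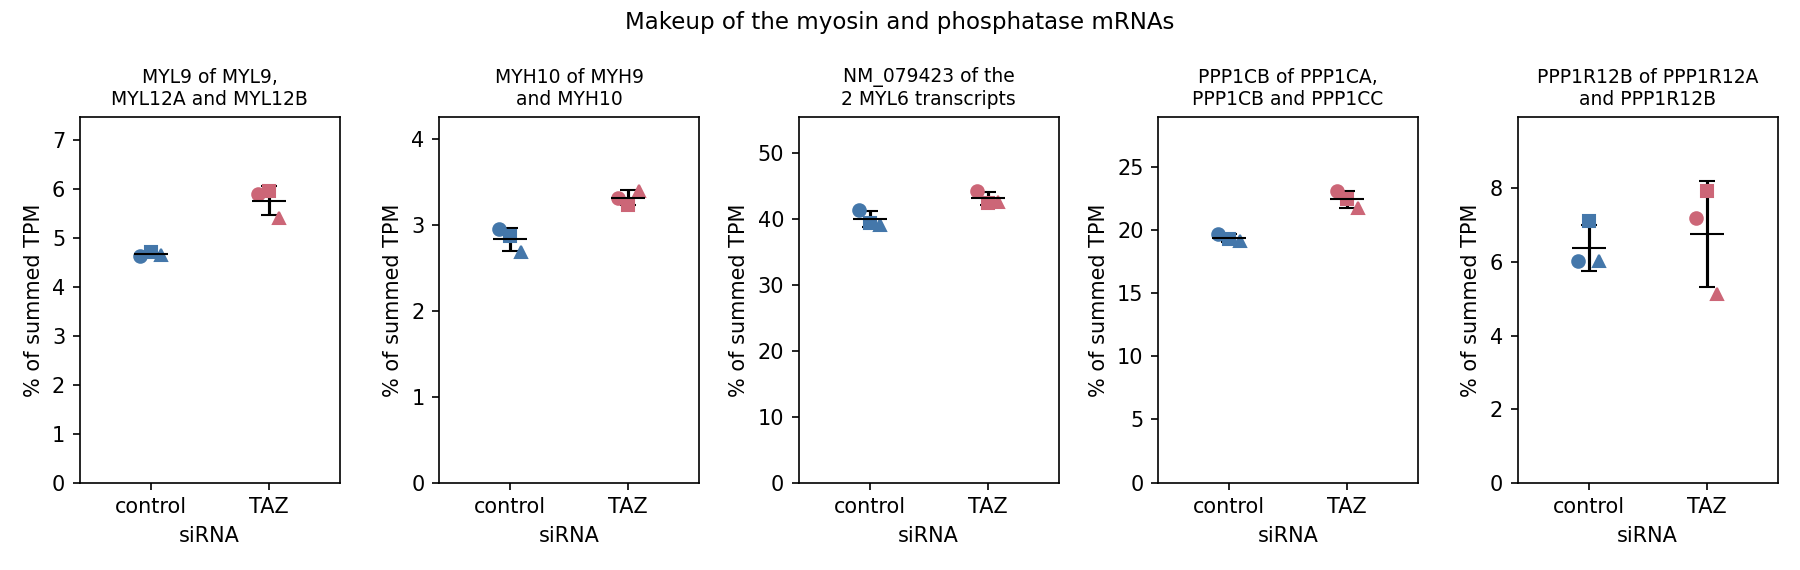
Shares of summed TPM per library in percent, from left to right MYL9 among the regulatory light chains, MYH10 among both heavy chains, NM_079423 among the MYL6 transcripts, PPP1CB among 3 catalytic subunits and PPP1R12B among the 2 targeting subunits. Points are libraries, and bars are the mean and SD of 3 libraries. The first 4 shares lie higher in every TAZ-siRNA library, and the fifth overlaps.

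Myosin phosphatase opposes the kinase. Its catalytic subunit PPP1CB, the beta form of protein phosphatase 1, is on chromosome 2 (28751748 to 28802940). It was 265, 259 and 263 CPM with control-siRNA and 293, 283 and 281 CPM with TAZ-siRNA. Every TAZ-siRNA library was above every control-siRNA library, by a log2 fold change of 0.12 (95% interval 0.02 to 0.23) that did not pass (edgeR adjusted p = 0.094). It passed with DESeq2 (adjusted p = 0.025) and, in edgeR, without TAZ-siRNA replicate 3 (adjusted p = 0.029).

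The other catalytic subunits, PPP1CA and PPP1CC, serve other phosphatase complexes. PPP1CC fell, from 250 to 261 CPM with control-siRNA to 218 to 226 CPM with TAZ-siRNA (log2 fold change -0.20, edgeR adjusted p = 0.016), a call lost without control-siRNA replicate 1 (edgeR adjusted p = 0.081) or 2 (0.070), and PPP1CA was 166 to 181 CPM against 154 to 171 CPM (edgeR adjusted p = 0.275). The summed TPM of the 3 genes was 601 ± 5.82 with control-siRNA and 590 ± 20.9 with TAZ-siRNA (SD, n = 3, exact permutation p = 0.6). PPP1CB held 19.7, 19.3 and 19.1% of it with control-siRNA and 23.1, 22.4 and 21.7% with TAZ-siRNA, without overlap (exact permutation p = 0.1). This share, too, was chosen after the values were seen.

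The targeting subunits bring the catalytic subunit to myosin. PPP1R12A (MYPT1) is on chromosome 12 (79773563 to 79935455). It was 114, 111 and 105 CPM with control-siRNA and 117, 112 and 111 CPM with TAZ-siRNA, overlapping, with a log2 fold change of 0.04 (95% interval -0.07 to 0.15, edgeR adjusted p = 0.591). Its 95% interval holds changes of up to 1.11-fold higher, and the length and GC correction gave -0.0021.

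PPP1R12B (MYPT2), a form best known from striated muscle, is on chromosome 1 (202348699 to 202592702). It was 16.9, 15.3 and 14.2 CPM with control-siRNA and 20.0, 20.3 and 14.6 CPM with TAZ-siRNA. TAZ-siRNA replicates 1 and 2 were above all controls and replicate 3 lay among them (log2 fold change 0.24, 95% interval -0.03 to 0.51, edgeR adjusted p = 0.18). Without that library the log2 fold change was 0.38 (edgeR adjusted p = 0.0013), and leaving out any other library gave 0.17 to 0.31. It was 0.11 with the length and GC correction (edgeR adjusted p = 0.288) and 0.072 by limma after adding 1 to the FPKM (limma adjusted p = 0.706). Its share of targeting subunit TPM was 6.04, 7.12 and 6.03% against 7.20, 7.94 and 5.14%, overlapping (exact permutation p = 0.8). The pseudogene RPS27P8 lies within PPP1R12B and had 71 to 160 counts, up to 23.2% of the PPP1R12B counts in a library.

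Other genes that overlap the 10 held fewer counts relative to them. MYLK-AS1, antisense to MYLK, had 31 to 53 counts, at most 4.8% of MYLK. LOC107987245 within MYH10 reached 3.43% and PPP1R12A-AS1 reached 1.76% of its partner. The processed pseudogenes of MYL6, MYL12A and MYL12B had at most 11 counts each. The library kit keeps the strand of the RNA, but whether the counting used it is not given in the sources used here, so it is not known whether counts of a gene and of its antisense partner were kept apart.

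A list of 28 other genes of the actomyosin cycle was read in the same fit. Of these, 25 were tested and 3 passed, 1 higher and 2 lower, which is 12% beside the 22.1% of all genes. The median log2 fold change of the 25 was 0.09. PPP1R14A, an inhibitor of myosin phosphatase, and the heavy chains MYH14 and MYH11 had at most 7 counts in any library and were not tested. Without TAZ-siRNA replicate 3, 11 of these genes passed, beside 5928 of 17585 genes in all. The 8 added were CDC42BPB, CDC42BPG, MPRIP, MYO18A and SVIL, with log2 fold changes of 0.15 to 0.69, and CALM2, MYL5 and PPP1R14B, with -0.48 to -0.15. With the GC and length correction, CDC42BPA (-0.20, edgeR adjusted p = 0.0043) and MYO18A (0.24, edgeR adjusted p = 0.040) passed as well as the 3.

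Among 12 kinases and activators, 1 rose and 0 fell, 8.33% beside the 22.1% of all genes. CALM3, which encodes calmodulin, the calcium sensor that activates MYLK, rose from 176 to 180 CPM to 209 to 233 CPM (log2 fold change 0.29, edgeR adjusted p = 0.0037). CALM2, which encodes the same protein, was 717 to 771 CPM against 654 to 783 CPM (log2 fold change -0.07, edgeR adjusted p = 0.549), and passed without TAZ-siRNA replicate 3 (-0.15, edgeR adjusted p = 0.042).

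The other MYLK genes, MYLK2, MYLK3 and MYLK4, were all under 1 CPM in every library, so that MYLK was the only member of its family with more.

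Of 6 phosphatase subunits and inhibitors tested, PPP1CC was the 1 that passed (16.7%, beside 22.1% of all genes). Of the other myosin II chains, MYL5 and MYL6B were tested and 0 passed, 1 of them at an unadjusted edgeR p under 0.05, as were 35.8% of all genes. MYL5 had a log2 fold change of -0.31 (edgeR adjusted p = 0.129), and passed without TAZ-siRNA replicate 3 (-0.48, edgeR adjusted p = 0.0054). Of 5 assembly factors, 1 passed (20.0%). This was LIMCH1, a protein that binds myosin IIA and promotes its activation, which fell from 171, 184 and 180 CPM to 90.0, 95.6 and 107 CPM (log2 fold change -0.87, edgeR adjusted p = 6.1e-05). This value lies within the 95% interval of the change of MYLK, -1.02 to -0.63. The changes of LIMCH1 and MYLK were not compared by a test.

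**Figure D5:**
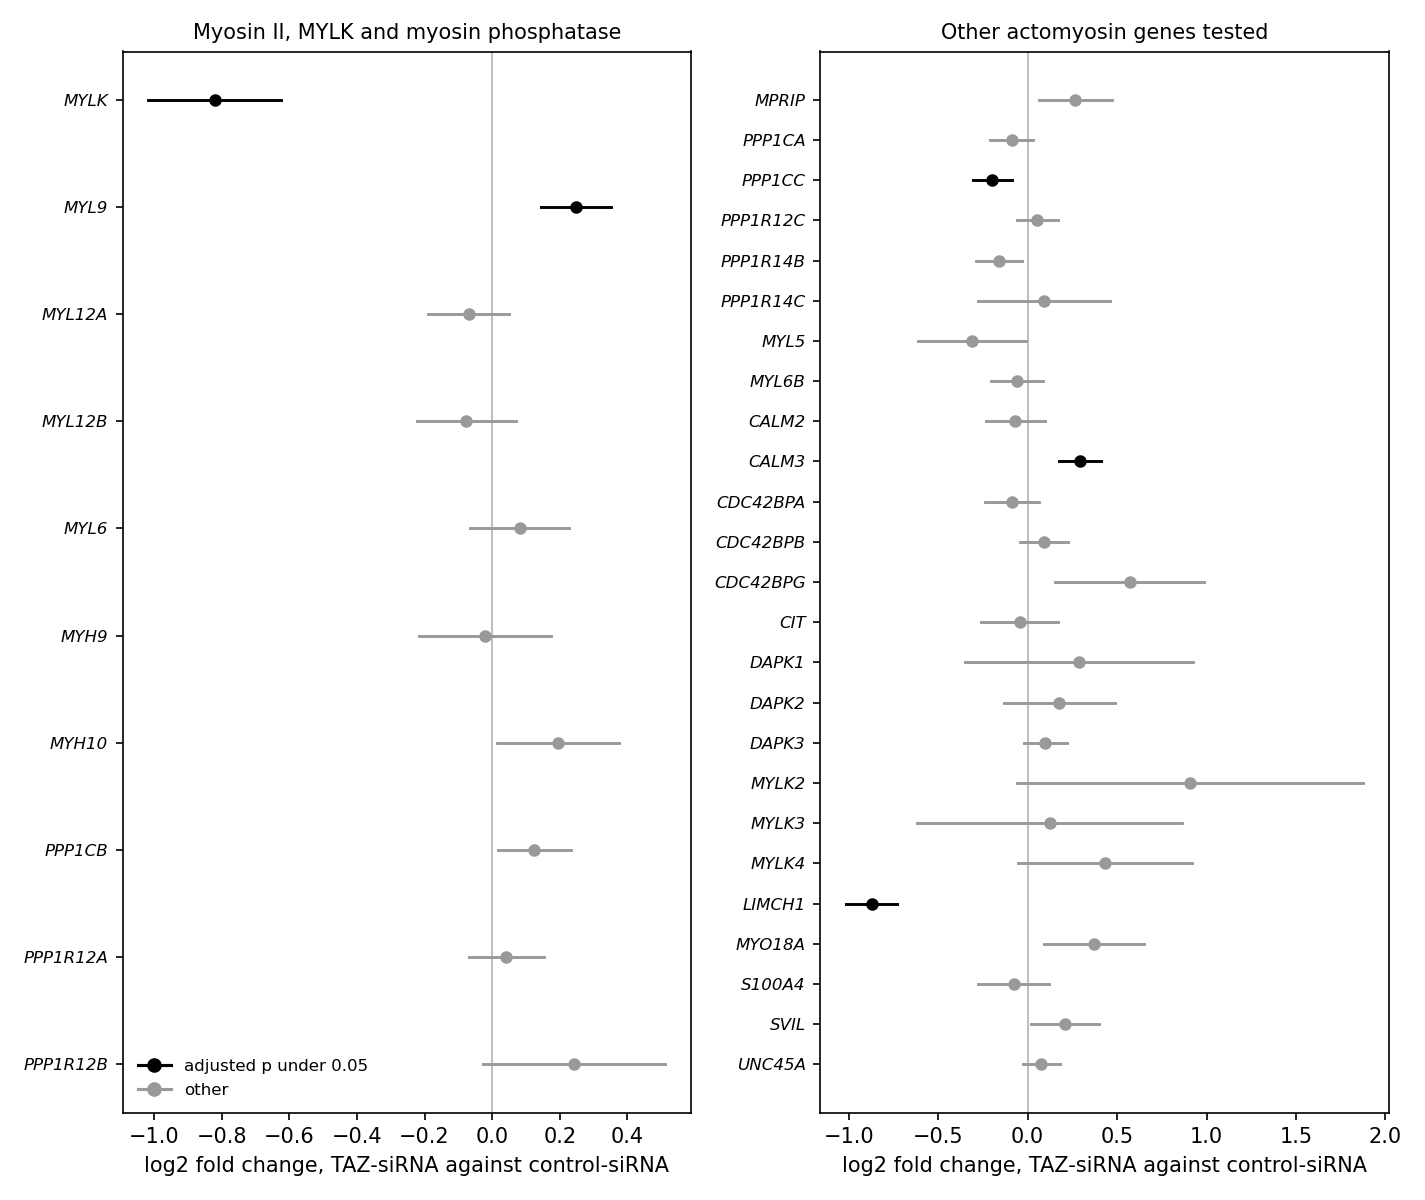
Log2 fold change of TAZ-siRNA against control-siRNA with its 95% interval from edgeR, for the 10 genes (left) and the 25 other actomyosin genes tested (right). Black marks an adjusted p under 0.05 over all genes tested. MYLK at -0.82 and MYL9 at 0.25 stand out on the left, and LIMCH1 at -0.87 on the right.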

How the data were processed

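RNA of 6 MDA-MB-231 libraries was sequenced (control-siRNA, n = 3; TAZ-siRNA, n = 3), grouped by the sample labels. Per the study's methods, reads were trimmed and aligned to GRCh38 by HISAT2, and StringTie built transcripts on a reference gene model. The transcripts listed carry RefSeq names. The submitters' processing notes also name Bowtie 0.12.2 and the build mm8, whose role is not given in the sources used here. The estimated counts deposited by the authors derive from coverage and are whole numbers. The FPKM deposited by the authors are scaled for length and depth. The TPM deposited by the authors are scaled to a common total per library.

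Counts were compared with edgeR 4.0.16 (R 4.3.3; TMM factors, genes kept by filterByExpr from a count of 10, robust quasi-likelihood fit, Benjamini-Hochberg). Between replicates, the counts of a gene varied by 8.04% and those of a transcript by 84.4% (common biological coefficient of variation). Shares were compared by exact permutation over libraries. Alternatives were DESeq2 1.42.0, upper-quartile factors, no filter, a replicate block, limma 3.58.1 after adding 1 or 0.1 to FPKM and taking log2, and leaving out each library. The correction for GC content and length (spline, 5 degrees of freedom; values for 89.7% of the genes tested) and the shares of PPP1CB and NM_079423 were added after the data had been seen. The gene-level fits were tested on simulated gene counts, and the transcript tests and the permutation of shares were not. The 10 genes and all lists were chosen with earlier results of these data known. All 10 genes and WWTR1 are named, and other actomyosin genes with an adjusted p under 0.05; the other names were chosen after their values were seen. Some planned genes of the actomyosin list are not reported here.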

Additional observations from a re-analysis of the deposited data

How the results depend on the processing

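MYL9 kept its call in all alternatives, and MYLK in all but limma on the FPKM, where its log2 change was -0.49 (log2(FPKM + 1), adjusted p = 0.105) and -0.65 (log2(FPKM + 0.1), adjusted p = 0.119), each with 1 of the 10 genes called. Leaving out a library gave 1937 to 5928 genes called, 2 to 6 of the 10 and 2 to 11 of the other actomyosin genes, the highest counts all without TAZ-siRNA replicate 3. The change of MYH9 then ran from -0.11 to 0.078, positive without TAZ-siRNA replicate 3. With the GC and length correction, MYL12A turned to 0.040, MYL12B to 0.013 and PPP1R12A to -0.0021, none of them called, while 5 other actomyosin genes and 4471 of 15218 genes were called. DESeq2 called 5 other actomyosin genes and 3818 genes in all. With a replicate block, 5 of the 10 genes (MYLK, MYL9, MYH10, PPP1R12B and PPP1CB), 8 other actomyosin genes and 5122 genes in all were called. Samples with the same number correlated in their deviations at only -0.017, 0.0086 and 0.070, so the numbers are not treated as pairs. These correlations do not exclude a pairing. Counts in place of TPM moved the rise in share, in percentage points, from 1.0996 to 2.46 for MYL9, from 0.368 to 1.57 for PPP1R12B and from 3.05 to 4.61 for PPP1CB, since counts also weigh length. The PPP1R12B share changed by -0.224 to 1.18 points when a library was left out. At this depth, a floor of 3 counts is 0.0412 to 0.0618 CPM.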
